A study of Mus musculus with 2 samples.

Results

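The enteroendocrine transcription factors Neurog3, Neurod1, Pax4, Isl1, Nkx2-2, Insm1, Rfx6, Mnx1 and Pax6 were followed through the cell classes of the mouse ileal crypt. They were taken by gene symbol, 9 genes of the 31053 in the count matrices, and their raw UMIs (unique molecular identifiers, each standing for 1 captured transcript) were summed per class and library. The order of interest ran from SEC-PRO, a class of dividing secretory progenitors, to EEC-PRE, the early endocrine class, and on to the hormone cell classes EC and NON-EC. Class names are the authors' own, the labels do not spell them out, and the readings used here rest on marker genes.

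Ileal crypts, labelled WT in both libraries, came from Atoh1CreER-T2;R26RTom mice, in which tamoxifen lets a Cre recombinase driven from Atoh1 switch on a red fluorescent reporter, Tom. Mice received 2 intraperitoneal doses of tamoxifen at 1 mg/mL, 24 h apart, and crypts were taken 12 h later. Live Tom+ single cells were sorted and made into 10x Genomics 3′ libraries, so every cell entered through Atoh1-driven labelling and no unlabelled or untreated group was analysed. There was 1 group with 2 libraries, called replicate 1 and replicate 2. The labels do not say whether they came from separate animals, so p-values measure only the spread between these libraries. The sources used here give neither the age nor the sex of the mice.

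Enteroendocrine cells are the scattered hormone-secreting cells of the gut epithelium, and they arise in crypts from secretory progenitors that express Atoh1. A short pulse of the basic helix-loop-helix (bHLH) factor Neurog3 commits a progenitor to the endocrine fate, and a further bHLH factor, Neurod1, follows it together with zinc-finger, homeodomain and winged-helix factors. Some of these factors are shared by all endocrine cells, whereas others belong to serotonin-making enterochromaffin cells or to cells that make peptide hormones such as ghrelin, GLP-1, cholecystokinin and secretin.

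The 9 genes lie at separate places in the mm10 assembly, by the GENCODE annotation. Neurog3 is at chr10:62133090-62134763 and Rfx6 at chr10:51677756-51730432, both on the plus strand. Neurod1 (chr2:79452521-79456751) and Nkx2-2 (chr2:147177546-147194243) are on the minus strand of a chromosome that also carries Insm1 (chr2:146221921-146225020) and Pax6 (chr2:105668900-105697364) on its plus strand. Pax4 (chr6:28442334-28449353), Isl1 (chr13:116298281-116309689) and Mnx1 (chr5:29473034-29478470) are each on the minus strand. Annotated neighbours overlap 4 of the 9: Fam241b overlaps Neurog3 on the opposite strand and had 785 UMIs in the listed cells, and Cerkl overlaps Neurod1 on the same strand and had 43, of which 42 were in endocrine classes. The genes that overlap Nkx2-2 and Pax6 had at most 3 UMIs each. The sources used here do not say whether counting used strand, so reads shared with these neighbours cannot be told apart.

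Promoters are shown for 5 of the factors: the initiator Neurog3, its bHLH successor Neurod1, the shared factors Nkx2-2 and Rfx6, whose profiles were the most alike, and Mnx1, which did not rise with the others. Each run holds the 250 bases before the RefSeq transcription start, on GRCm38.p6 (mm10) and read 5′ to 3′ on the gene's strand. Capitals mark the E-box letters CANNTG, the core that bHLH dimers such as those of Neurog3 and Neurod1 bind.
Neurog3, chr10:62132840-62133089, plus strand: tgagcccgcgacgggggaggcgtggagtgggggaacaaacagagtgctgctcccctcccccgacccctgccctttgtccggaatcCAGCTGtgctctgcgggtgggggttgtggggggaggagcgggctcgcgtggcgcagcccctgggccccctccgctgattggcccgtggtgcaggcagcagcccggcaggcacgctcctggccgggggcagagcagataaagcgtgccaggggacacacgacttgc
Neurod1, chr2:79456637-79456886, minus strand: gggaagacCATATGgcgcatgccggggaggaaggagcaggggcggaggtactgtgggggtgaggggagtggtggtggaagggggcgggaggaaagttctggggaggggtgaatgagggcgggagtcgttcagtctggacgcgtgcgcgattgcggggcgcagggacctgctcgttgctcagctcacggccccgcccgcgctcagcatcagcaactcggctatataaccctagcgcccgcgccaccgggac
Nkx2-2, chr2:147186403-147186652, minus strand: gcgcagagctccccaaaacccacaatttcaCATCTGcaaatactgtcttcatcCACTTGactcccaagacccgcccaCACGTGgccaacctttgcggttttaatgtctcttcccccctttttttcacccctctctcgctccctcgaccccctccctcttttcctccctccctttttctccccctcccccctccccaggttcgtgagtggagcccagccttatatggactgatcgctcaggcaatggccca
Rfx6, chr10:51685268-51685517, plus strand: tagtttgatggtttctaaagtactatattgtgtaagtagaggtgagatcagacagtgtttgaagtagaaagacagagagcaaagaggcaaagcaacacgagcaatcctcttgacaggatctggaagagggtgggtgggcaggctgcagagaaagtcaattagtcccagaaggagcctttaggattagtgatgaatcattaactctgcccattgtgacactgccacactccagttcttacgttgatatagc
Mnx1, chr5:29478471-29478720, minus strand: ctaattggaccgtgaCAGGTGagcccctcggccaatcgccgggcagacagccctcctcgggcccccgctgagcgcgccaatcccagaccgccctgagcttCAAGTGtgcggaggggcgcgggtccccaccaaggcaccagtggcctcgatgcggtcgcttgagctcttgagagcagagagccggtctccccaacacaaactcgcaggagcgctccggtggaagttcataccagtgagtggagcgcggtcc
Neurog3 and Neurod1 had 1 such core each, Mnx1 had 2, Nkx2-2 had 3 and Rfx6 had none in this window. By the GENCODE bounds given above, the windows of Nkx2-2 and Rfx6 lie inside the annotated genes. That of Neurod1 overlaps the 5′ end of its gene in part. The bases before the GENCODE starts of Nkx2-2 and Rfx6 were not searched. RefSeq starts were found for 7 of the 9 factors, with 8 promoters in all. CANNTG, which reads alike on both strands, was in 6 of these 8 and in 66.2% of all 32851 promoters of the same length. The narrower core CAGATG, searched on both strands, was in 1 of the 8 and in 14.4% of all promoters, and CAGCTG was in 2 of the 8 and in 13.0%. A match is a run of letters and not a shown binding site, and these shares were near those of promoters at large for CANNTG.

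Replicate 1 held 5305 cells and 32656481 UMIs in the authors' cell list (median 5706 UMIs per cell), and replicate 2 held 6257 cells and 27014983 UMIs (median 3503). EEC-PRE numbered 57 and 73 cells, EC 42 and 83, and NON-EC 103 and 112, together 470 of 11562 cells (4.07%), and 12 barcodes occurred in both libraries. Levels are CPM, a gene's UMIs as parts per 1e6 of all UMIs of the class sum, with edgeR's scaling factors for the factors and other single genes and without them for marker sums and free RNA. Summed markers of enterochromaffin cells separated EC from NON-EC. The level of Tph1, Tac1, Ddc and Slc18a1, genes tied to serotonin or substance P, was 7660 and 4097 CPM in EC against 866 and 773 in NON-EC. Taken singly, Tph1 (5.28 against 837 CPM), Tac1 (90.8 against 2755) and Slc18a1 (29.3 against 184) were called lower in NON-EC by edgeR, and Ddc was not. In EEC-PRE, Tph1 was at 0 in both libraries and the 6 endocrine markers (Chga, Chgb, Scg3, Scgn, Cpe, Pcsk1) summed to 1066 and 1444 CPM. These markers came to 61096 and 40207 CPM in EC, 9691.5 and 9083 in NON-EC, and 34.0 and 55.9 in SEC-PRO. Goblet markers summed to 15386 and 16169 CPM in EEC-PRE, 2422 and 13519 in EC and 18840 and 17150 in NON-EC, and Paneth markers to 6166 and 11917, 6711 and 19718, and 7123 and 11335 in the same order. The 4 immune markers were at 0 in EEC-PRE and EC and summed to at most 6.09 CPM in NON-EC. The mesenchymal markers Col1a1, Col3a1 and Dcn were at 0 in all 3 endocrine classes, whereas Vim, the fourth of that list, stood at 4.23 and 0 CPM in EEC-PRE, 1065 and 729 in EC and 229 and 76.1 in NON-EC, and the part of other cells' RNA in the values below was not tested.

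All factors but Mnx1 were found mostly in the 3 endocrine classes, which held 4.07% of cells. The share of a factor's listed UMIs that fell in EEC-PRE, EC and NON-EC was 87.6% for Neurog3, 93.0% for Nkx2-2, 94.2% for Insm1, 94.5% for Neurod1, 95.6% for Rfx6 and 95.8% for Isl1, and it was 63 of 70 UMIs for Pax4 and 307 of 323 for Pax6. Mnx1 stood apart, with 39 of its 189 UMIs (20.6%) in these classes. For all factors but Mnx1, the 3 highest of the 12 class means were EEC-PRE, EC and NON-EC. In Mnx1, a homeodomain factor known from motor neurons and pancreatic beta cells, EC was highest and the next class was ISC, the stem cell class, at 9.20 and 3.53 CPM in the 2 libraries. Without scaling factors the ISC levels were 11.7 and 4.52 CPM. Free RNA, taken from barcodes with at most 50 UMIs, carried Mnx1 at 10.8 (13 UMIs) and 4.29 CPM (5 UMIs). Free RNA levels are shares of free RNA itself, so these similar values do not show how much of the ISC level is background. On the same scale Mnx1 was at 0 CPM in PANETH in both libraries and at 1.16 and 0.795 CPM in GOBLET-PRE. The part of free RNA in the ISC level was not tested. Mnx1 was seen in 35 of 553 ISC cells of replicate 1 (6.33%, exact 95% interval 4.45 to 8.69) and in 34 of 1739 of replicate 2 (1.96%, 1.36 to 2.72). Thinned to 2000 UMIs per cell, the ISC shares were 2.91% and 0.643%, and TUFT cells had 1.54% and 2.30%, with intervals that overlapped those of ISC in both libraries. The interval covers counting error only, here and below.

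**Figure D1:**
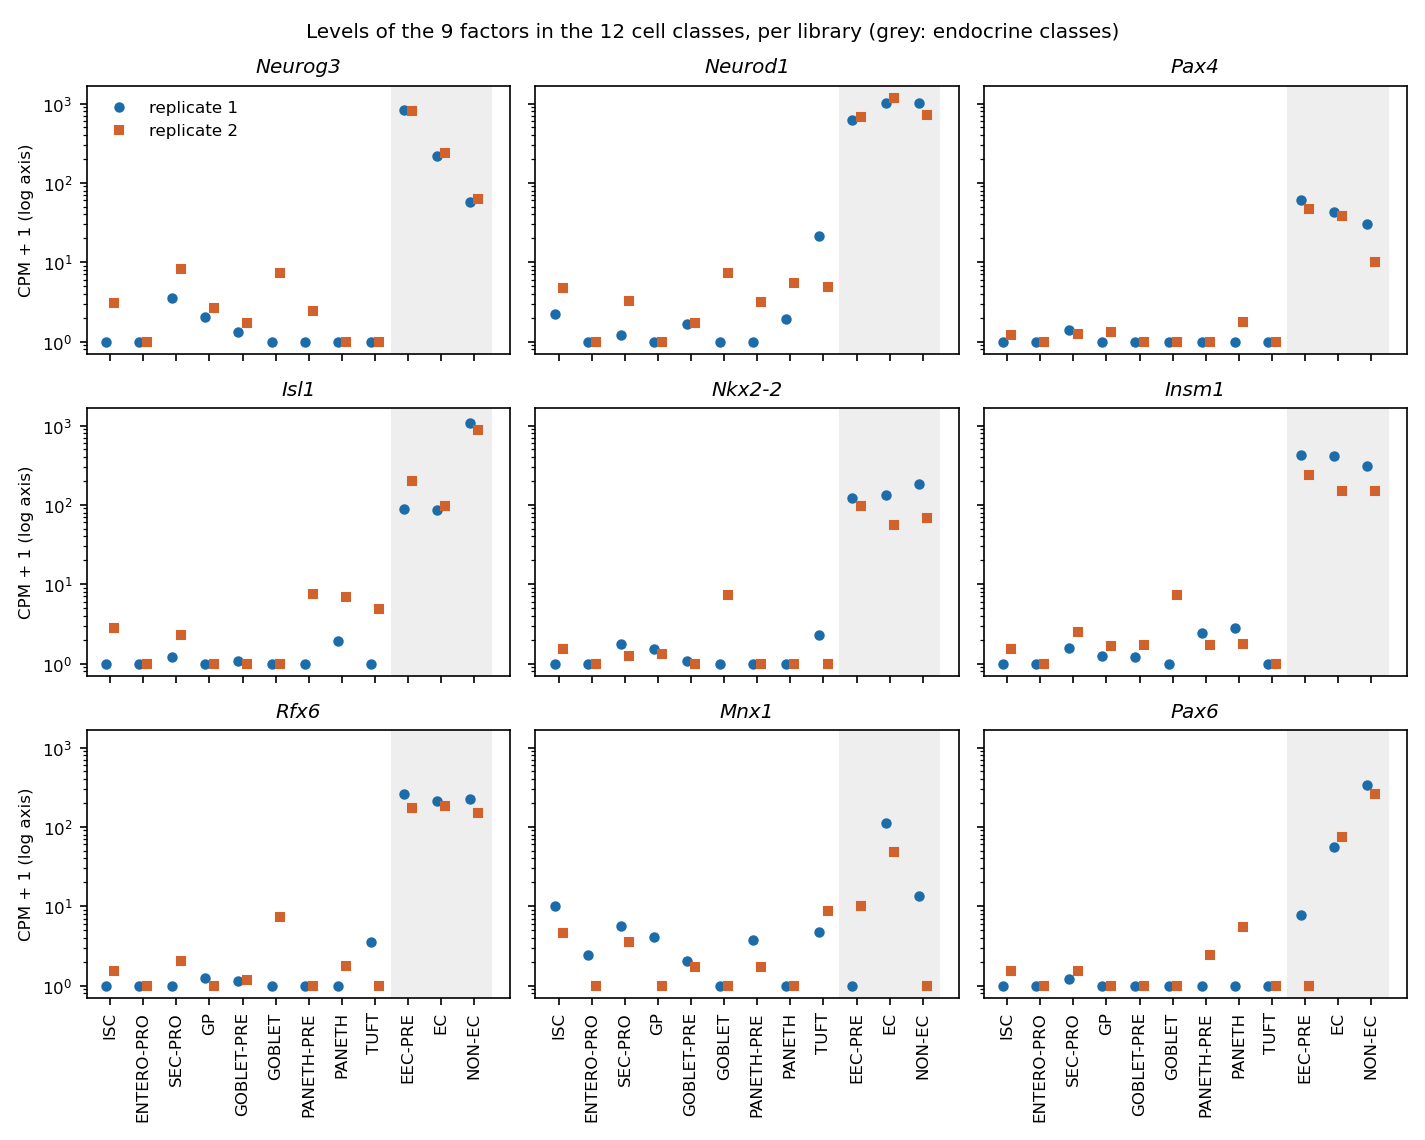
Level of each factor in the 12 classes, as CPM + 1 on a log axis, with 1 point per library (circles, replicate 1; squares, replicate 2) and the endocrine classes on grey. By class mean, the endocrine classes are the highest for all factors but Mnx1, for which EC is highest and ISC is next.

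Outside the endocrine classes the 8 factors other than Mnx1 were rare and clustered in few cells. Any UMI of them was seen in 136 of 11092 such cells, and the 33 cells with 2 or more of the factors held 172 of the 307 UMIs (56.0%). In ISC of replicate 2, 10 cells held 62 of the class's 95 UMIs, 6 of the 10 had Chga, the granin of endocrine vesicles, and their median was 6561.5 UMIs against 3973 for the class. In SEC-PRO such cells had Chga in 0 of 4 and 2 of 8, at medians of 4076 and 3406 UMIs against 5413 and 3488.5 for the class, and over all classes 13 of the 33 had it. In TUFT, Neurod1 reached 20.2 and 3.90 CPM, and 16 of its 18 UMIs came from 1 cell of replicate 1 that also held Nkx2-2 and Rfx6. Free RNA carried Neurod1 at 18.2 and 20.6 CPM, Isl1 at 14.9 and 10.3, Neurog3 at 12.4 and 9.43 and Pax4 at 0.828 and 0. Without scaling factors, the levels of Neurod1, Isl1 and Neurog3 were below free RNA in every sum outside the endocrine classes except Neurod1 in TUFT of replicate 1, and Neurog3 in SEC-PRO of replicate 2 was close to it. The part of free RNA, or of 2 cells under 1 barcode, in these levels was not tested.

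From ISC to SEC-PRO, Neurog3 alone of the 9 factors passed the test. In this comparison 34.4% of the 10994 genes tested were called at an adjusted p under 0.05 by edgeR's quasi-likelihood test, 19.9% as higher in SEC-PRO and 14.5% as lower. The classes were drawn by the authors from the same expression values, so these p-values, and all that follow, are no independent evidence that classes differ. Neurog3 measured 2.55 and 7.11 CPM in SEC-PRO and 0 and 2.08 CPM in ISC, so SEC-PRO was higher within each library, and replicate 2 was higher in both classes. The log2 change was 1.69 ± 0.49 (SE; edgeR adjusted p = 0.0081). The call was lost with DESeq2 (adjusted p = 0.059) and without the library term (edgeR adjusted p = 0.064). Without scaling factors Neurog3 in SEC-PRO was at 3.22 and 9.04 CPM, against 12.4 (15 UMIs) and 9.43 CPM (11 UMIs) in free RNA. This cannot tell signal from background, since free RNA levels are shares of free RNA itself. On the same scale PANETH had 0 CPM in both libraries and GOBLET-PRE 0.363 and 0.795. The part of free RNA in these levels was not tested. The 41 SEC-PRO UMIs lay in 4 of 782 and 15 of 842 cells, with up to 7 in a cell.

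After thinning to 2000 UMIs, 4 of 672 SEC-PRO cells of replicate 1 held Neurog3 (0.595%, exact 95% interval 0.162 to 1.52), as did 9 of 692 of replicate 2 (1.30%, 0.596 to 2.45). Without thinning the shares were 0.512% and 1.78%, at medians of 5413 and 3488.5 UMIs. In GOBLET-PRE, the large goblet precursor class, thinned shares were 0.0444% and 0%, and none of the 130 and 87 thinned TUFT cells had a UMI, which allows up to 2.31% and 3.45%. In replicate 2 the thinned SEC-PRO interval lay wholly above that of GOBLET-PRE (0 to 0.286%), and in replicate 1 the intervals overlapped (upper bound 0.247% in GOBLET-PRE). Of the other factors, Neurod1 was in 0 and 3 thinned SEC-PRO cells, Insm1 in 2 and 3, Mnx1 in 9 and 4, and Rfx6 in none.

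Entry into EEC-PRE brought 7 of the 9 factors up, while 23.3% of all genes were called in this comparison, 12.5% higher and 10.8% lower. All factors but Mnx1 passed the count filter only through the endocrine classes, where they were high. The 7 of 9 is therefore a description and no test against the share of all genes. Neurog3 rose from 2.55 and 7.11 CPM in SEC-PRO to 838 and 812 CPM in EEC-PRE (825 ± 18.7, SD, n = 2), a log2 change of 7.49 ± 0.24 (SE; edgeR adjusted p = 2.46e-21). Neurod1 went from 0.196 and 2.29 CPM to 623 and 684 CPM, a log2 change of 9.13 ± 0.50 (edgeR adjusted p = 2.36e-07). For both bHLH factors the classes did not overlap, and the libraries lay close together in EEC-PRE.

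Insm1, the zinc-finger factor of endocrine and neuroendocrine cells, measured 428 and 237 CPM in EEC-PRE and 0.589 and 1.52 CPM in SEC-PRO, a log2 change of 8.36 ± 0.34 (edgeR adjusted p = 2.22e-25). Rfx6, a winged-helix factor that acts after Neurog3 in gut and islets, measured 259 and 173 CPM against 0 and 1.02, a log2 change of 8.81 ± 0.41 (edgeR adjusted p = 2.86e-29). Nkx2-2, a homeodomain factor needed for most gut hormone fates, measured 121 and 95.8 CPM against 0.785 and 0.254, a log2 change of 7.55 ± 0.52 (edgeR adjusted p = 5.15e-21). These 3 shared factors were higher in EEC-PRE of replicate 1 than of replicate 2, and the classes lay far apart in each library.

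Isl1, a LIM-homeodomain factor, measured 87.5 and 196 CPM in EEC-PRE and 0.196 and 1.27 CPM in SEC-PRO, a log2 change of 7.56 ± 0.98 (edgeR adjusted p = 0.000477). Pax4, a paired-homeodomain factor known from endocrine fate choice in gut and pancreas, measured 60.6 and 45.6 CPM against 0.393 and 0.254. With only 3 SEC-PRO UMIs of Pax4, the ratio of the class sums was 161 with a counting interval of 49.8 to 828, and the edgeR adjusted p was 5.58e-13. Mnx1 and Pax6 did not pass the test. Mnx1 had 0 and 9.12 CPM in EEC-PRE (2 UMIs) and 4.71 and 2.54 CPM in SEC-PRO, a ratio of 1.02 with a counting interval of 0.118 to 3.96 (edgeR adjusted p = 0.996). Pax6, a paired and homeodomain factor that drives proglucagon transcription, had 6.73 and 0 CPM against 0.196 and 0.508, a ratio of 11.5 from 2 and 3 UMIs with a counting interval of 0.961 to 100.4 (edgeR adjusted p = 0.186).

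Genes around the factors changed at the same step. Of the 20 other endocrine transcription factors tested, 12 were higher and 2 lower in EEC-PRE than in SEC-PRO, with a median log2 change of 3.23 against -0.01 over all genes. The gene lists, here and below, were chosen with earlier results of these data known. Genes high only in the endocrine classes passed the count filter through those classes. The list counts are therefore descriptions and no test against all genes. Neurod2 (40 UMIs in EEC-PRE and none in SEC-PRO), St18 (169 against 0.0981 CPM) and Myt1 (132 against 0.254 CPM) led the rises. Bhlha15, a factor of secretory cell maturation, fell from 22.9 to 4.56 CPM, on 2 UMIs in EEC-PRE. Of 14 transcription factors of other crypt lineages, none rose and 9 fell. Atoh1, the secretory master factor that also drives the Cre used here, fell from 102 to 6.73 CPM (log2 change -3.73 ± 0.67, edgeR adjusted p = 0.000269). Its EEC-PRE level rests on 4 UMIs, all in 1 cell of replicate 1. Spdef and Klf4, factors of goblet cells, fell from 136 to 26.1 and from 318 to 102 CPM. Of 16 early endocrine and Notch genes, 10 rose and 1 fell: Tubb3, Amotl2 and Mfng led the rises, and the Notch target Hes1 went from 48.2 to 15.9 CPM. Of 12 genes for hormones and serotonin making, 1 rose and none fell by this test: Ddc, the decarboxylase of serotonin synthesis, went from 8.52 to 376 CPM.

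Mki67, a marker of dividing cells, was in fewer EEC-PRE than SEC-PRO cells. Thinned SEC-PRO cells had a UMI of it in 63.2% and 59.0% of cases, and thinned EEC-PRE cells in 9.26% and 13.0% (79.2% and 65.8%, and 21.1% and 11.0%, without thinning). Of the 16 dissociation and stress genes, 15 were higher in SEC-PRO than in ISC, 2 rose and 3 fell from SEC-PRO to EEC-PRE, and 5 rose and none fell from EEC-PRE to EC. Their part in the factor levels was not tested.

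**Figure D2:**
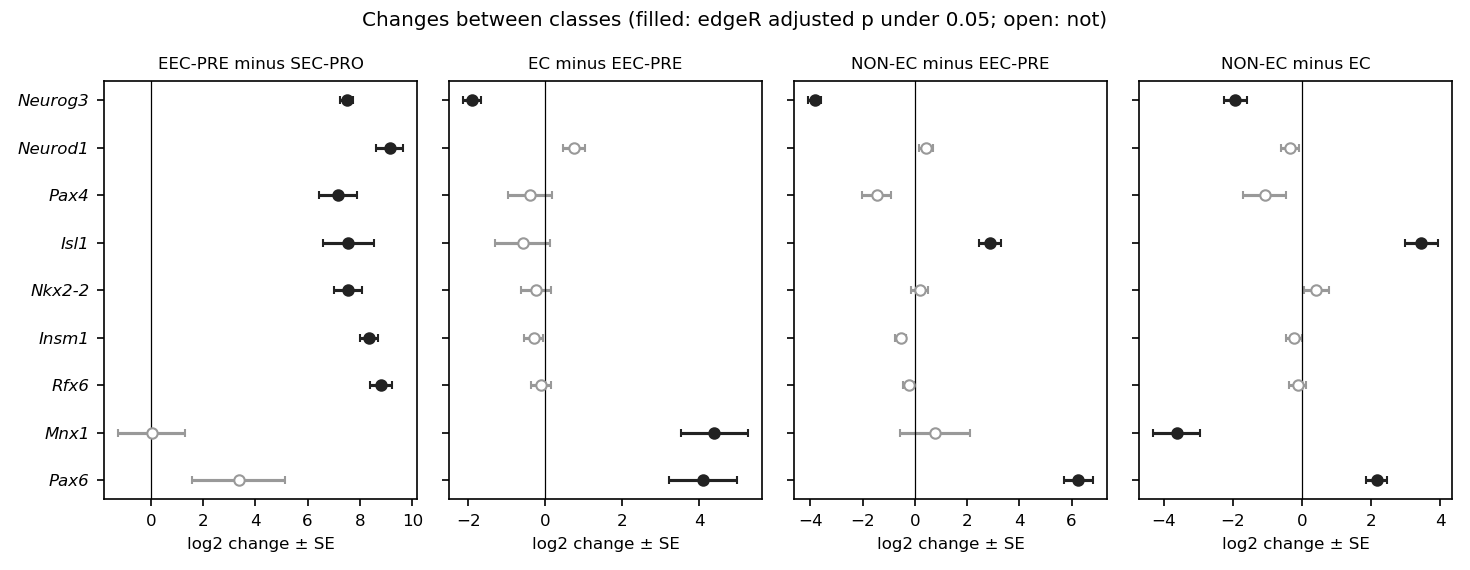
Log2 change of each factor with its SE in 4 comparisons, from edgeR, with filled points where the adjusted p was under 0.05 and open points where it was not. On entry into EEC-PRE, 7 of the 9 factors lie between 7 and 10, and the filled points of the other comparisons are Neurog3, Isl1, Mnx1 and Pax6.

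Within EEC-PRE, Neurog3 was the most widely seen factor in thinned cells. It was detected in 44 of 54 thinned cells of replicate 1 (81.5%, exact 95% interval 68.6 to 90.7) and 36 of 46 of replicate 2 (78.3%, 63.6 to 89.1). Thinned shares were 53.7% (replicate 1) and 23 of 46 cells (replicate 2) for Neurod1, 61.1% and 45.7% for Insm1, 57.4% and 39.1% for Rfx6, 20.4% and 17.4% for Nkx2-2, 16.7% and 8.70% for Pax4 and 9.26% and 15.2% for Isl1. Without thinning they were 64.9% and 64.4% for Neurod1, 73.7% and 54.8% for Insm1 and 75.4% and 39.7% for Rfx6. Thinning kept 54 of 57 and 46 of 73 EEC-PRE cells. A median of 3 and 2.5 of the 9 factors was seen per thinned cell, against 0 in SEC-PRO and TUFT.

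Neurod1 divided the EEC-PRE cells along several other genes. Chga was seen in 9 of 29 thinned cells with Neurod1 and in none of 25 without it in replicate 1, and in 7 of 23 and 1 of 23 in replicate 2. Isl1 went the same way, in 5 of 29 and 0 of 25 cells and in 6 of 23 and 1 of 23. Dll1, the Notch ligand of young secretory cells, went the opposite way, in 1 of 29 and 5 of 25 cells of replicate 1 and in 0 of 23 and 3 of 23 of replicate 2. Pax4 was seen mostly beside Neurod1: 8 of 9 and 4 of 4 thinned cells with Pax4 also had Neurod1, against 21 of 45 and 19 of 42 without it. Cells with and without Neurod1 had median depths of 3799 and 4043 UMIs in replicate 1 and of 2360 and 2781 in replicate 2 before thinning. These are counts over cells of 2 libraries, on few cells, and were not tested.

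Neurog3 fell along both routes out of EEC-PRE. It measured 219 and 235 CPM in EC and 55.9 and 61.8 CPM in NON-EC, against 838 and 812 CPM in EEC-PRE, and the 3 classes did not overlap. In EC the log2 change from EEC-PRE was -1.90 ± 0.23 (edgeR adjusted p = 4.43e-07, 0.055 with DESeq2), and in NON-EC it was -3.82 ± 0.25 (edgeR adjusted p = 7.70e-13). Across all genes 7.36% were called from EEC-PRE to EC (4.49% higher and 2.87% lower) and 9.5% from EEC-PRE to NON-EC (5.8% higher and 3.69% lower), and among the factors 2 rose and 1 fell in each. NON-EC lay below EC by a log2 change of -1.93 ± 0.33 (edgeR adjusted p = 0.000339), a call that was lost with DESeq2 (adjusted p = 0.296). Neurog3 was still seen in 26.5% and 34.0% of thinned EC cells and in 10.6% and 14.1% of thinned NON-EC cells. Their lower bounds, at 5.22% or more, were above the 2.31% and 3.45% that a count of 0 allows in TUFT.

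Neurod1 was seen in more of the hormone cells than of EEC-PRE cells. It measured 1002 and 1166 CPM in EC and 1022 and 710 CPM in NON-EC, against 623 and 684 CPM in EEC-PRE. The log2 change was 0.75 ± 0.29 in EC (edgeR adjusted p = 0.194) and 0.42 ± 0.28 in NON-EC (edgeR adjusted p = 0.452), but in EC it passed with cells thinned to 2000 UMIs (edgeR adjusted p = 0.0022) and with no filter on low counts (0.00066), and in NON-EC with thinned cells (0.0036). The share of thinned cells with Neurod1 was 85.3% and 87.2% in EC and 86.2% and 75.6% in NON-EC, against 53.7% and 23 of 46 cells in EEC-PRE. In each library these shares lay above the upper bound in EEC-PRE, which was 67.4% and 65.1%. The intervals themselves overlapped for NON-EC and EEC-PRE of replicate 2.

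Insm1, Rfx6 and Nkx2-2 did not pass the test between the endocrine classes. Insm1 measured 413 and 150 CPM in EC and 310 and 149 CPM in NON-EC, with log2 changes from EEC-PRE of -0.30 ± 0.24 and -0.54 ± 0.21 (edgeR adjusted p = 0.558 and 0.105, and 0.038 in NON-EC with scaling factors from all genes). Rfx6 measured 212 and 183 CPM in EC and 224 and 146 CPM in NON-EC, with log2 changes of -0.11 ± 0.26 and -0.23 ± 0.22 (edgeR adjusted p = 0.887 and 0.613). Nkx2-2 measured 134 and 55.0 CPM in EC and 182 and 66.4 CPM in NON-EC, with log2 changes of -0.23 ± 0.39 and 0.18 ± 0.32 (edgeR adjusted p = 0.835 and 0.824). Missing the threshold does not show that levels were equal. All 3 factors were lower in replicate 2 in every endocrine class, where the cells were also shallower, at a median of 2157 against 3897 UMIs in EEC-PRE. Thinning left Insm1 in 67.6% and 34.0% of EC cells and in 54.3% and 32.1% of NON-EC cells, with intervals that did not overlap between libraries in either class. Paneth markers summed higher in replicate 2 of all 3 classes, and their part in this gap was not tested.

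Pax4 went from 60.6 and 45.6 CPM in EEC-PRE to 42.5 and 36.7 CPM in EC and 29.0 and 9.16 CPM in NON-EC. Each EC and NON-EC value was below both EEC-PRE values. The log2 changes were -0.39 ± 0.57 in EC (edgeR adjusted p = 0.797) and -1.46 ± 0.55 in NON-EC (edgeR adjusted p = 0.0833, and 0.034 with DESeq2), on 28, 17 and 18 UMIs in the 3 classes.

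Isl1 and Pax6 were highest in NON-EC. Isl1 measured 1072 and 879 CPM in NON-EC, 85.0 and 95.4 CPM in EC and 87.5 and 196 CPM in EEC-PRE, so NON-EC lay above both other classes in each library. From EEC-PRE to NON-EC the log2 change was 2.86 ± 0.42 (edgeR adjusted p = 0.0026), and it was 3.60 within replicate 1 and 2.16 within replicate 2. NON-EC was above EC by 3.45 ± 0.48 (edgeR adjusted p = 0.0072), where 1.56% of all genes were called, 0.728% higher in NON-EC and 0.837% lower. Of the 9 factors, 2 were called higher and 2 lower in NON-EC than in EC. For Isl1, DESeq2 gave changes of 3.01 and 3.59 with adjusted p of 0.157 and 0.294, so both calls were lost with it. From EEC-PRE to EC Isl1 changed by -0.59 ± 0.72 (edgeR adjusted p = 0.754).

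Pax6 measured 337 and 259 CPM in NON-EC, 54.6 and 73.4 CPM in EC and 6.73 and 0 CPM in EEC-PRE, a rise along both routes with no overlap between classes. EEC-PRE held 2 Pax6 UMIs, and against them the ratio of class sums was 17.4 in EC (counting interval 4.41 to 151) and 81.4 in NON-EC (22.3 to 675). The edgeR adjusted p was 0.0013 for EC and 2.57e-11 for NON-EC. Between the hormone cell classes the log2 change, NON-EC minus EC, was 2.16 ± 0.31 (edgeR adjusted p = 8.28e-06). DESeq2 lost all 3 Pax6 calls (adjusted p = 0.715, 0.389 and 0.951), with changes of 3.59, 5.96 and 2.37 on the log2 scale.

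Thinned to 2000 UMIs, Isl1 was seen in 84 of 94 NON-EC cells of replicate 1 (89.4%, exact 95% interval 81.3 to 94.8) and 61 of 78 of replicate 2 (78.2%, 67.4 to 86.8). In EC the thinned shares were 8.82% and 10.6%, with upper bounds of 23.7% and 23.1%. Pax6 was seen in 51.1% and 43.6% of thinned NON-EC cells, 17.6% and 14.9% of EC cells and 1.85% and 0% of EEC-PRE cells. Without thinning, Isl1 was in 102 of 103 and 103 of 112 NON-EC cells, and Pax6 in 66.0% and 53.6%.

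Mnx1 was highest in EC. It measured 109 and 47.7 CPM in EC, 0 and 9.12 CPM in EEC-PRE and 12.4 and 0 CPM in NON-EC, and EC overlapped with neither class. Against the 2 EEC-PRE UMIs the ratio of class sums was 18.6 in EC (counting interval 4.74 to 161), with an edgeR adjusted p of 0.000185 that became 0.088 without the library term. NON-EC lay below EC by a log2 change of -3.62 ± 0.67 (edgeR adjusted p = 0.000171, 0.200 without the library term). Thinned shares in EC were 17.6% and 14.9%, against 1.54% and 2.30% in TUFT. The exact 95% interval in EC lay above that in TUFT in replicate 1 (from 6.76% against up to 5.45%) and overlapped it in replicate 2 (from 6.20% against up to 8.06%).

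**Figure D3:**
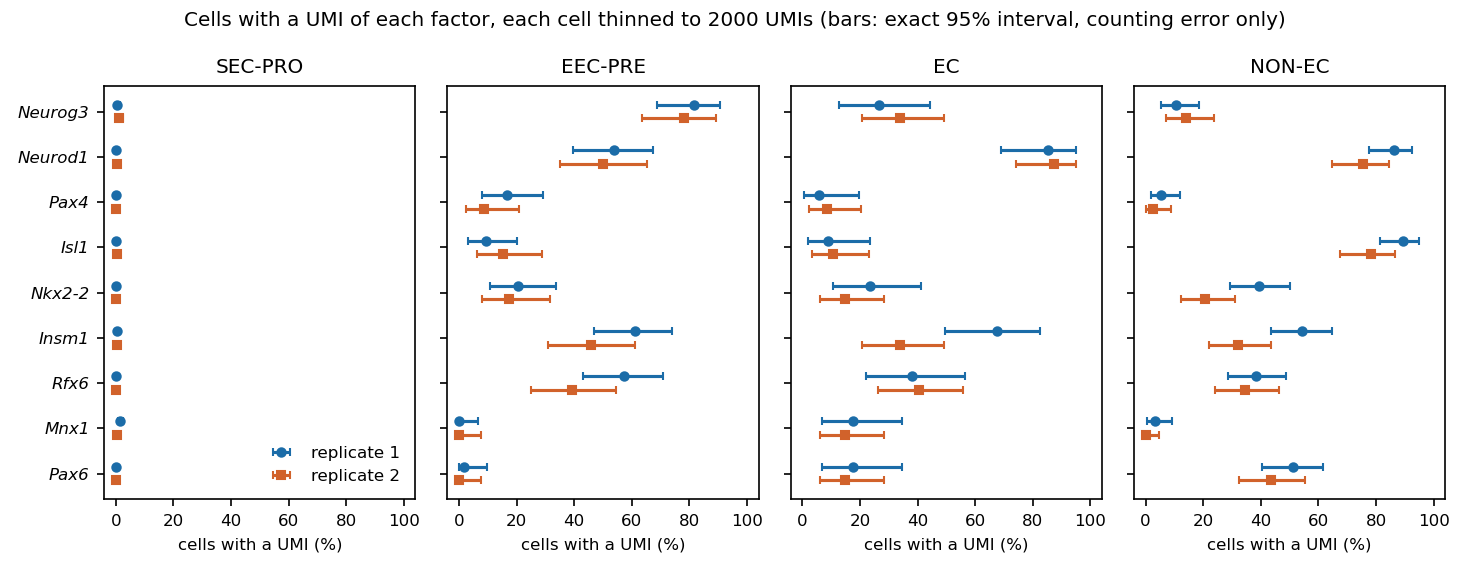
Share of cells with a UMI of each factor, with each cell thinned to 2000 UMIs, in SEC-PRO, EEC-PRE, EC and NON-EC; points are libraries and bars are exact 95% intervals for counting error only. Neurog3 is highest in EEC-PRE (81.5% and 78.3%), Isl1 in NON-EC (89.4% and 78.2%), and Mnx1 in EC (17.6% and 14.9%).

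Most hormone and vesicle genes were higher in the hormone cell classes than in EEC-PRE. From EEC-PRE, 6 of the 12 hormone and serotonin genes tested rose in EC and 9 in NON-EC, and none fell. Tac1, the substance P precursor, went from 7.33 to 2755 CPM in EC, and Tph1, the serotonin-making hydroxylase, from 0 to 338 UMIs. In NON-EC, Gcg, the proglucagon gene, went from 0 to 2596 UMIs and Cck from 6.25 to 2766 CPM. Of 12 granin and prohormone processing genes, 6 rose from SEC-PRO to EEC-PRE, 7 from EEC-PRE to EC and 9 from EEC-PRE to NON-EC, and none fell. Among the other endocrine transcription factors, Lmx1a, a LIM-homeodomain factor of serotonin cells, had 71 UMIs in EC and none in EEC-PRE or NON-EC. Sox4 fell along both routes, from 1640 CPM in EEC-PRE to 311 in EC and 224 in NON-EC.

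The leading hormone transcript of a cell, meaning the hormone with the most UMIs and at least 5, separated Neurog3 and Pax6 within NON-EC. Neurog3 was seen in 16 of 45 cells led by Ghrl (35.6%), the ghrelin gene, and in 14 of 52 cells with no leading hormone (26.9%). It was seen in 2 of 38 cells led by Sct (5.26%) and in none of the 27 led by Gcg, the 21 led by Cck and the 12 led by Gip. Both libraries showed this: Ghrl cells had Neurog3 in 8 of 21 and 8 of 24, and Gcg cells in 0 of 15 and 0 of 12. With cells thinned to 1000 UMIs, an alternative chosen after seeing the data, it was in 9 of 45 Ghrl cells and again in none of the Gcg and Cck cells. Median depth was 2781 UMIs in Ghrl cells and 3261 in Gcg cells. Over all NON-EC cells, medians with and without Neurog3 were 3663.5 and 3454 UMIs in replicate 1 and 2216 and 2536 in replicate 2. The part of depth in these shares was not tested.

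Pax6 went the other way. It was seen in 19 of 45 Ghrl cells (42.2%) and 24 of 52 without a leading hormone (46.2%), and in 25 of 38 Sct cells (65.8%), 16 of 21 Cck cells (76.2%), 22 of 27 Gcg cells (81.5%) and 10 of 12 Gip cells (83.3%). Thinned to 1000 UMIs it was in 9 of 45 Ghrl cells and in 55.6% of Gcg cells. Across all NON-EC cells, Pax6 was in 4 of 16 and 5 of 17 cells with Neurog3 and in 64 of 87 and 55 of 95 cells without it. Isl1 was in at least 90% of the cells of every leading hormone with 10 or more cells in NON-EC. Pax4 was in none of the 45 Ghrl cells, but it was rare in NON-EC at large, in 11 of 103 and 4 of 112 cells. In EC, Mnx1 was in 16 of 66 Tac1 cells (24.2%) and 7 of 47 cells with no leading hormone (14.9%), and Neurog3 was in 31.8% and 40.4% of them. The order for Mnx1 turned when the leading hormone had to reach 20 UMIs. It was then in 2 of 14 Tac1 cells (14.3%) and 23 of 106 cells with no leading hormone (21.7%). In NON-EC, with the minimum of 20 UMIs, Neurog3 was in 8 of 28 Ghrl cells and 0 of 26 Gcg cells, and Pax6 in 16 of 28 and 22 of 26. For Pax6, Sct cells then lay close to Ghrl cells, at 10 of 16 (62.5%) against 57.1%. Thinned to 1000 UMIs as well, Pax6 was in 32.1% of Ghrl, 31.25% of Sct and 57.7% of Gcg cells. These groups are small and were drawn from the same cells, and no test was made.

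**Figure D4:**
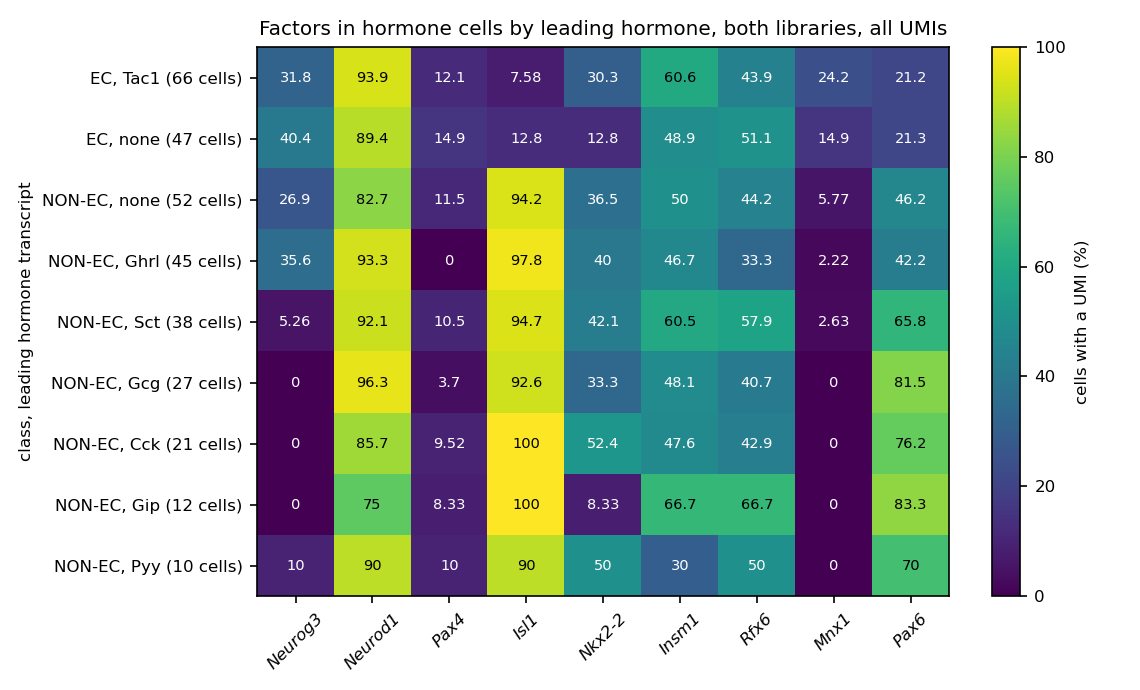
Percent of EC and NON-EC cells with a UMI of each factor, by the leading hormone transcript of the cell, both libraries together and without thinning. Neurog3 is at 35.6% in Ghrl cells and 0% in Gcg, Cck and Gip cells, while Pax6 runs from 42.2% in Ghrl cells to 83.3% in Gip cells.

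Genes with profiles most like each factor were ranked by Pearson's r of log2 CPM over the 24 class sums, which share libraries and the split between endocrine and other classes. Nearest to Neurog3 were Rcor2, Chd7 and Jade3 (r = 0.930, 0.929 and 0.928). Rcor2 measured 75.7 CPM in EEC-PRE, 21.9 in EC and 20.9 in NON-EC, and the last of these differed by less than their spread. Celf3 and Mapk15 were among the nearest 3 of Neurod1, Nkx2-2 and Rfx6, with Lrp11 for Neurod1 and Myt1 for the other two, and Vwa5b2 and Gfra3 were among those of Pax4 and Insm1, with Tubb3 for Pax4 and Kcnb2 for Insm1. Isl1 had Pclo, Syt13 and Spock2 nearest, and Pax6 had Ap3b2, Baiap3 and Scg5. Among the factors themselves, Nkx2-2 and Rfx6 were most alike (r = 0.990), and Mnx1 was least like the others (r = 0.368 to 0.487). The nearest genes to Mnx1, Elf2, Gdpd5 and 4930503L19Rik, reached only r = 0.844. With a smaller prior count of 0.5, 3 of 3 nearest genes were shared for Isl1 and Pax6, and 1 or 2 of 3 for the others.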

How the data were processed

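Cell Ranger 3.0.2, STAR and the mm10 build are named in the submitters' processing notes. Each deposited matrix gives whole UMI counts for every gene of every barcode, kept or not, written by Cell Ranger per the file headers. The deposited cell table gives the cells the authors kept, their class, their counts and the percent of mitochondrial UMIs. How cells were kept and classes assigned, whether doublets were removed, and the strand setting are not given in the sources used here. No doublet caller was run here. The members and gene lists were chosen with earlier results of these data known.

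Counts were summed per class and library (24 sums) and fitted with edgeR 4.0.16 in R 4.3.3 by the quasi-likelihood test, with class and library as terms, on 10994 genes kept by filterByExpr, with Benjamini-Hochberg adjustment over all of them and a threshold of 0.05. All 9 factors passed the filter, and all but Mnx1 did so only through the endocrine classes, where they were high. TMM scaling factors were computed on genes averaging log2 CPM 6 or more, as in earlier processing of these files. The SE is the log2 change divided by the square root of the test statistic. The library number pairs the sums, since each library gave all 12 classes: library differences correlated between classes with a median r of 0.298 (0.0554 to 0.776) over 66 class pairs and 3834 genes. Ratios against 3 or fewer UMIs are given with exact counting intervals.

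Shares of cells were computed on cells thinned to 2000 UMIs, which left out 1276 of 11562 listed cells, and on all cells, with exact Clopper-Pearson 95% intervals. A share of 0 allows up to 3 counts of the total. Named genes were drawn from the factors, the 3 genes most like each, and up to 3 rises and 3 falls per list and comparison, and 1 gene among them is not reported here. Alternatives were no library term, other scaling factors, DESeq2 1.42.0, no filter, thinned cells and each library alone. On simulated counts for EEC-PRE minus SEC-PRO (10994 genes, 200 changed), the fit recovered 70% of genes changed by 4-fold and 78% by 8-fold, with 5 false calls. Promoters came from RefSeq on GRCm38.p6, which did not list Pax4 or Insm1.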

Additional observations from a re-analysis of the deposited data

Results flagged for a closer look

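Barcodes outside the authors' cell list also carried the factors. Among barcodes with over 600 genes that are not listed, 55 of 2857 in replicate 1 and 19 of 1286 in replicate 2 had UMIs of 3 or more of the 9 factors (1.93% and 1.48%). They drew attention as a signal in data that no comparison uses. In replicate 1, 32 of these barcodes had 3000 genes or more, and 23 had fewer genes and at least 7% mitochondrial UMIs, and in replicate 2 the counts were 10 and 9. The unlisted barcodes held 118 and 26 UMIs of Neurog3. Among listed cells of all classes, 178 of 5305 (3.36%) and 199 of 6257 (3.18%) had 3 or more of the factors, a higher share than among all unlisted barcodes in each library. Unlisted barcodes with 3000 genes or more had them in 32 of 1120 (2.86%) in replicate 1. In replicate 2 it was 10 of 219 (4.57%), above the share of listed cells.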

How the results depend on the processing

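Of 270 refits of the factors (45 comparisons of a factor between classes under 6 alternatives), 247 kept the direction and the side of the threshold. Calls were lost 8 times with DESeq2 and 3 times without the replicate block, as given beside each result, and calls were gained in 6 refits of 5 values, among them Neurod1 from ISC to SEC-PRO with thinned cells (-1.94 on the log2 scale, edgeR adjusted p = 0.049). Signs turned only in values that no fit called. With DESeq2, Pax6 changed by 0.56 from ISC to SEC-PRO (-0.15 with edgeR) and Nkx2-2 by -0.036 from EEC-PRE to NON-EC (0.18 with edgeR). With thinned cells, Rfx6 changed by -0.086 from ISC to SEC-PRO, Mnx1 by -4.97 from SEC-PRO to EEC-PRE and Nkx2-2 by 0.28 from EEC-PRE to EC, and with scaling factors from all genes Mnx1 changed by -0.080 from SEC-PRO to EEC-PRE. The cause was not tested.

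The number of genes called without the replicate block was 1925 against 3779 for SEC-PRO minus ISC and 110 against 172 for NON-EC minus EC, and it stayed within 1.5 times for the other comparisons. With thinned cells, which leaves fewer cells and UMIs, it was 2409 against 3779 for SEC-PRO minus ISC, 1611 against 2567 for EEC-PRE minus SEC-PRO, 500 against 809 for EC minus EEC-PRE and 615 against 1044 for NON-EC minus EEC-PRE. Within single libraries, which allow no test, all 18 called changes of the factors kept their direction. The log2 change from EEC-PRE to EC was 7.12 and 2.29 for Mnx1 and 2.88 and 6.55 for Pax6, and the larger of each pair is set against a library with 0 UMIs and depends on the prior count of 2. EEC-PRE held 57 and 73 cells, which limits what its shares can show.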
